A study of Mus musculus with 6 samples.

Results

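Expression of 10 genes for LIM domain proteins of the actin cytoskeleton was compared between Rnf40+/+ and Rnf40-/- mouse embryonic fibroblasts (MEFs). The genes were Fhl1, Fhl2 and Fhl3 of the four-and-a-half-LIM (FHL) family, Csrp1 and Csrp2 of the cysteine-rich protein (CRP) family, Pdlim1, Pdlim5 and Pdlim7 of the PDZ-LIM family, Lpp of the zyxin family and Crip2 of the CRIP family. They were taken by symbol from the 29955 genes of the deposited table, and all 10 were present and had enough reads to be tested. RNF40 is a subunit of the ubiquitin ligase that places H2Bub1, the monoubiquitin mark on histone H2B. The data were mRNA sequencing (RNA-seq) with libraries made from total RNA isolated at passage 3, and there were 3 libraries per genotype. The Rnf40-/- MEFs were primary cells of embryos homozygous for an Rnf40 allele with exons 3 and 4 between loxP sites, and they carried CreERT2, a Cre recombinase activated by tamoxifen, in the ubiquitously expressed Rosa26 locus. They had received 250 nM 4-hydroxytamoxifen (4-OHT) for 5 days and were then grown for 3 days without it. The labels give the control MEFs as Rnf40+/+ with no further allele, and the sources used here do not state whether they carried CreERT2 or received 4-OHT, so the deletion and the treatment cannot be told apart. Nothing in these sources says which libraries came from separate embryos or cultures, and p-values therefore measure the spread between these libraries, which may be technical.

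The LIM domain is a zinc-binding fold that joins proteins to one another rather than to DNA. Proteins built from it sit on actin stress fibers, at focal adhesions and at the Z-discs of muscle, where they hold together actin crosslinkers, kinases and adapters, and several of them also move to the nucleus and act there as cofactors of transcription. Many of their genes are expressed in smooth muscle and in fibroblasts under tension, and serum response factor (SRF), which binds an element known as the CArG box, is a well-known activator of cytoskeletal genes.

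The promoter sequences show where such an element lies in these genes. Promoter windows from RefSeq (250 bases before to 50 after each annotated start, GRCm38.p6) were matched by symbol for 9 of the 10 genes, all but Csrp2, with 15 windows in all, and each window matched a single place in mm9. A CArG box was found in 3 of the 15 windows, whereas 1.63% of all 32851 windows of the same length held one. The 3 windows belong to 2 of the 9 genes, with both starts of Fhl2 and 1 start of Fhl1, whose other start held none. The share of all genes with such a window was not computed. The bases before the start of these 3 windows are shown from 5′ to 3′ with the CArG box in capitals, because they are the windows of the members that hold the element.

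Fhl2, start nearest to the gene body, chr1:43220807-43220956, minus strand, mm9: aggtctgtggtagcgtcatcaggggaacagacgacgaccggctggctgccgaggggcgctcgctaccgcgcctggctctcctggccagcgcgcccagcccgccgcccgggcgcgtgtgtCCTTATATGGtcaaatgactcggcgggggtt
Fhl2, start further upstream, chr1:43253607-43253756, minus strand, mm9: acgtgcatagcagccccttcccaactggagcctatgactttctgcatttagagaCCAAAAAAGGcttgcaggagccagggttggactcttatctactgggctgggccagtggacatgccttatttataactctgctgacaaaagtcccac
Fhl1, chrX:54032710-54032859, plus strand, mm9: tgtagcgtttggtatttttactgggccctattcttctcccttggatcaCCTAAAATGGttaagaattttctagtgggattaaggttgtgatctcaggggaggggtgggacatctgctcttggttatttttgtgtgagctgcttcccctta

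The element of the first sequence lies at positions -31 to -22 from the start, that of the second at -96 to -87 and that of Fhl1 at -102 to -93, and none overlapped another motif searched. None of the 3 stretches overlaps an exon of its own gene in the annotation of mm9, while exons of other genes were not checked. The stretch of Fhl1 lies between the ends of its gene. Of the other motifs searched on both strands, GGGCGG was in 8 of the 15 windows against 35.7% of all windows, TATAAA in 3 against 13.6%, GGAATG in 1 against 14.7%, and the AP-1 site (TGACTCA or TGAGTCA) in none against 5.2%. A match describes these letters and does not show that a factor binds there.

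Each library held between 17053436 and 26344170 reads on genes, and the lowest number of reads for any of the 10 genes in a library was 88, for Csrp2. The normalized count is the number of reads of a gene divided by a size factor of its library. The targeted gene Rnf40 had a normalized count of 1278, 1195 and 1096 in Rnf40+/+ MEFs. In Rnf40-/- MEFs the count was 439, 519 and 487, so that 40.5% of it remained. This count is for the whole gene, whereas only the exons between the loxP sites are deleted. It therefore does not measure how complete the deletion was. The paper reports, with a western blot, that Rnf40 deletion and the resulting loss of H2Bub1 were effective. Of 12 fibroblast marker genes, 11 were lower in Rnf40-/- MEFs and Dcn was not called, and their summed normalized count lay between 702190 and 782380 in Rnf40+/+ and between 411900 and 414440 in Rnf40-/- libraries. Among the 12 muscle marker genes 3 had enough reads to be tested, of which 1 was lower and none was higher, and Myod1 had no read in any library. The lower one was Des, the gene of the intermediate filament desmin, with a normalized count of 431, 126 and 114 in Rnf40+/+ and of 35.7, 27.1 and 42.5 in Rnf40-/- MEFs. Its libraries did not overlap, and its log2 fold change was -2.38 (limma adjusted p = 0.000486), or -1.77 without Rnf40+/+ replicate 1 (limma adjusted p = 7.71e-05). The remaining tested muscle markers were not called, with log2 fold changes of 0.53 for Tnnt2 (limma adjusted p = 0.0586) and -0.12 for Ttn (limma adjusted p = 0.875). Rnf40+/+ replicate 1 stood apart in this list, with 937 normalized counts of Actc1, the cardiac actin, against 10.2 and 7.99 in the other Rnf40+/+ libraries, and the summed list ranged from 242 to 1525 in Rnf40+/+ and from 174 to 228 in Rnf40-/- libraries. All 10 LIM domain genes were also called lower without this library. Of the 8 macrophage markers, 2 were lower and 2 higher, with sums of 5560 to 9476 in Rnf40+/+ and 3570 to 3943 in Rnf40-/- libraries. Of the 6 endothelial markers 3 were higher, with sums of 62.2 to 150 and 197 to 303, and of the 6 epithelial markers 1 was higher, with sums of 37.7 to 95.5 and 54.8 to 73.4. By the rule for calls given below, 24.1% of all genes tested were lower and 23.3% were higher, which is the background of these marker counts. The part of the differences in marker genes in the results was not tested. In bulk RNA, fewer cells of a type and less RNA per cell cannot be told apart.

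All 10 LIM domain genes were lower in Rnf40-/- MEFs and none was higher, with log2 fold changes from -2.08 for Csrp1 to -0.30 for Pdlim1. A gene was called when its Benjamini-Hochberg adjusted p from limma, over 16378 genes, was under 0.05. Among all genes tested, 24.1% were lower and 23.3% were higher by this rule. Over the 10 genes the median difference was -0.87 on the log2 scale, against -0.0035 over all genes tested. The genotypes did not overlap for any of the 10 genes, whereas 28.7% of all genes tested were lower and 27.8% higher without overlap. Together the 10 genes took 0.263%, 0.272% and 0.252% of the reads on genes in Rnf40+/+ and 0.155%, 0.159% and 0.156% in Rnf40-/- MEFs. The study called genes with a mean above 15, an unadjusted p under 0.05 and a log2 fold change beyond 1 in size. Here these thresholds were applied to the unadjusted p and the log2 fold change from limma, so the calls are not those of the study itself. By that rule Csrp1, Csrp2 and Lpp, 3 of the 10 genes, were lower and none was higher, against 5.7% and 4.25% of all genes tested.

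**Figure D1:**
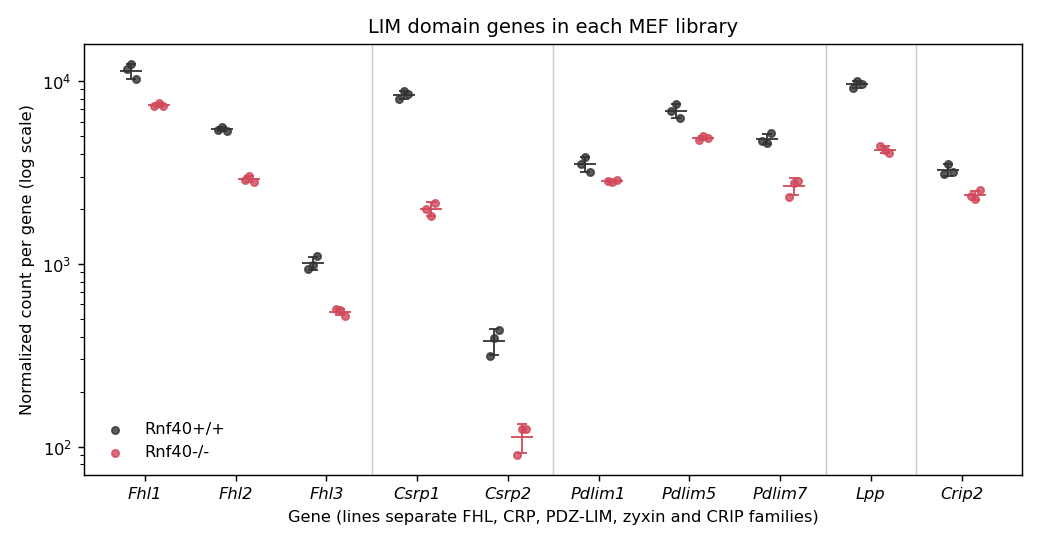
Normalized count (log axis) of each LIM domain gene in the 3 Rnf40+/+ (dark) and 3 Rnf40-/- (red) libraries; points are libraries and bars are the mean ± SD. The red points lie below the dark points for all 10 genes, with the widest gap for Csrp1, at 7994 to 8831 against 1826 to 2165.

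The members of the CRP family had the lowest log2 fold changes of the 10 genes. CRP1, the product of Csrp1, binds alpha-actinin and zyxin on actin filaments and is abundant in smooth muscle. Csrp1 (ENSMUSG00000026421, chromosome 1 of mm9, 137616638 to 137648809) had a normalized count of 7994, 8831 and 8461 in Rnf40+/+ and of 2002, 1826 and 2165 in Rnf40-/- MEFs. Its highest Rnf40-/- library was thus far below its lowest Rnf40+/+ library. The means were 8429 ± 419 and 1998 ± 169 (SD, n = 3 each), so that 23.7% remained. The log2 fold change was -2.08 ± 0.07 (SE, limma adjusted p = 4.83e-09), and 1.06% of all genes tested had a lower one. CRP2, the product of Csrp2, is a close relative that is known from vascular smooth muscle. Csrp2 (ENSMUSG00000020186, chromosome 10, 110357232 to 110376678) had fewer reads, with a normalized count of 313, 391 and 436 in Rnf40+/+ and of 89.7, 124 and 125 in Rnf40-/- MEFs. Relative to the mean, both genotypes spread more widely here than for Csrp1, at 380 ± 62.3 and 113 ± 20.03 (SD, n = 3 each), yet the libraries did not overlap. The log2 fold change was -1.74 ± 0.16 (SE, limma adjusted p = 5.02e-06).

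LPP, a zyxin relative at focal adhesions, binds alpha-actinin and the Ena/VASP protein VASP. Lpp (ENSMUSG00000033306) spans chromosome 16 from 24393436 to 24992662 on the plus strand of mm9, and exons of the lincRNA 1110054M08Rik on the opposite strand overlap its exons, while the use of strand in the counting is not given in the sources used here. It had a normalized count of 9151, 9973 and 9685 in Rnf40+/+ and of 4412, 4177 and 4052 in Rnf40-/- MEFs, or 9603 ± 417 and 4213 ± 183 (SD, n = 3 each). The spread was small in both genotypes, and 43.9% remained. The log2 fold change was -1.19 ± 0.06 (SE, limma adjusted p = 7.15e-08).

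Proteins of the FHL family consist of LIM domains alone. FHL2 moves between adhesions and the nucleus, where it acts as a cofactor of transcription factors, SRF among them. Fhl2 (ENSMUSG00000008136, chromosome 1, 43179919 to 43220806) had a normalized count of 5392.0, 5626 and 5341 in Rnf40+/+ and of 2891, 3009.9 and 2799 in Rnf40-/- MEFs, so that 53.2% was left. The libraries of each genotype lay close together, and the log2 fold change was -0.91 ± 0.06 (SE, limma adjusted p = 3.34e-07). FHL3 is best known from skeletal muscle. Fhl3 (ENSMUSG00000032643, chromosome 4, 124377945 to 124385855) had a normalized count of 937, 989 and 1100.4 in Rnf40+/+ and of 563, 556 and 520.3 in Rnf40-/- MEFs, which left 54.2%. Its log2 fold change of -0.88 ± 0.08 (SE, limma adjusted p = 5.33e-06) was close to that of Fhl2. FHL1, whose human gene is mutated in several myopathies, is also expressed in heart and skeletal muscle. Fhl1 (ENSMUSG00000023092, chromosome X, 53984964 to 54046523) had a normalized count of 11582, 12366 and 10249 in Rnf40+/+ and of 7310.0, 7608 and 7332 in Rnf40-/- MEFs. The libraries did not overlap, with 65.1% left and a log2 fold change of -0.62 ± 0.07 (SE, limma adjusted p = 3.79e-05). Fhl1 and Fhl2 are the genes whose promoter sequences with a CArG box are shown above.

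PDZ-LIM proteins bind alpha-actinin or actin filaments through the PDZ part and other partners through the LIM part. PDLIM7, also called Enigma, is an adapter between the cytoskeleton and signaling proteins. Pdlim7 (ENSMUSG00000021493, chromosome 13, 55597156 to 55615037) had a normalized count of 4723, 4575 and 5199 in Rnf40+/+ and of 2333, 2772 and 2857 in Rnf40-/- MEFs. The log2 fold change was -0.87 ± 0.08 (SE, limma adjusted p = 6.24e-06), and 54.9% was left. PDLIM5, also called ENH, binds protein kinase C. Pdlim5 (ENSMUSG00000028273, chromosome 3, 141903568 to 142058630) had a normalized count of 6893, 7535 and 6277 in Rnf40+/+ and of 4749.6, 4995 and 4852 in Rnf40-/- MEFs, a log2 fold change of -0.50 ± 0.07 (SE, limma adjusted p = 0.000152). PDLIM1, also called CLP36, is an alpha-actinin binding protein of stress fibers. Pdlim1 (ENSMUSG00000055044, chromosome 19, 40296731 to 40346106) had a normalized count of 3534, 3842 and 3163 in Rnf40+/+ and of 2856, 2814 and 2873 in Rnf40-/- MEFs. It had the smallest fall of the 10 genes, with 81.1% left and a log2 fold change of -0.30 (95% confidence interval -0.46 to -0.14, limma adjusted p = 0.00575), and 28.2% of all genes tested had a lower log2 fold change.

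CRIP2 is a small LIM protein related to the CRP family. Crip2 (ENSMUSG00000006356, chromosome 12, 114378447 to 114383715) had a normalized count of 3119, 3539.6 and 3162 in Rnf40+/+ and of 2341, 2263 and 2529.5 in Rnf40-/- MEFs. The libraries did not overlap, 72.6% was left, and the log2 fold change was -0.46 ± 0.07 (SE, limma adjusted p = 0.000261). The 10 genes thus formed a graded series, with 3 below -1, 3 between -1 and -0.8 (Fhl2, Fhl3 and Pdlim7) and 4 nearer to 0 (Fhl1, Pdlim5, Crip2 and Pdlim1).

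**Figure D2:**
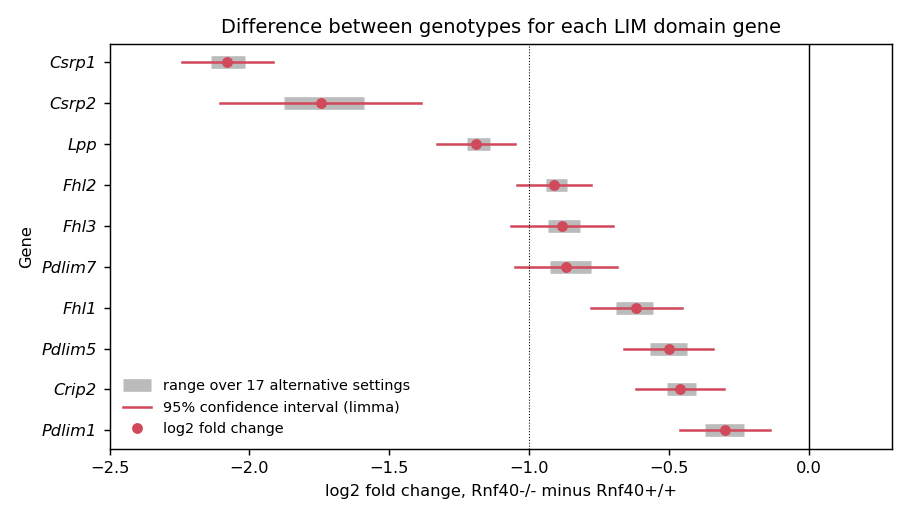
Log2 fold change (Rnf40-/- minus Rnf40+/+) of each LIM domain gene, with its 95% confidence interval from limma (line) and its range over 17 other settings of the analysis (gray bar). No interval reaches 0, and the order runs from Csrp1 at -2.08 to Pdlim1 at -0.30.

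Levels were compared between genes as normalized count per kilobase of annotated exons, which takes out transcript length. In Rnf40+/+ MEFs Csrp1 was the highest at 4309 ± 214, followed by Fhl2 at 3489 ± 97.3, Fhl1 at 3063 ± 288, Pdlim1 at 2337 ± 226 and Crip2 at 2278 ± 161 (SD, n = 3 each). Pdlim5 at 1286 ± 117, Pdlim7 at 997 ± 67.2, Lpp at 600.4 ± 26.1, Fhl3 at 599.5 ± 49.5 and Csrp2 at 381 ± 62.5 came next. The libraries of Pdlim1 and Crip2 overlapped, as did those of Lpp and Fhl3, whereas the other neighbors in this order did not. In Rnf40-/- MEFs the highest level was that of Fhl1 at 1993 ± 44.7, and the libraries of Pdlim1 (1895 ± 20.4) and Fhl2 (1855 ± 67.8) overlapped. Csrp1 stood at 1021 ± 86.6 per kilobase, below Crip2 at 1655 ± 95.4. It was followed by Pdlim5 at 907 ± 23.0, Pdlim7 at 547 ± 58.0, Fhl3 at 325 ± 13.6, Lpp at 263 ± 11.5 and Csrp2 at 113 ± 20.1, and none of these neighbors overlapped. With the longest transcript as the length, Fhl1 came before Fhl2 in Rnf40+/+ MEFs and overlapped Csrp1, and Pdlim5 came before Csrp1 in Rnf40-/- MEFs.

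**Figure D3:**
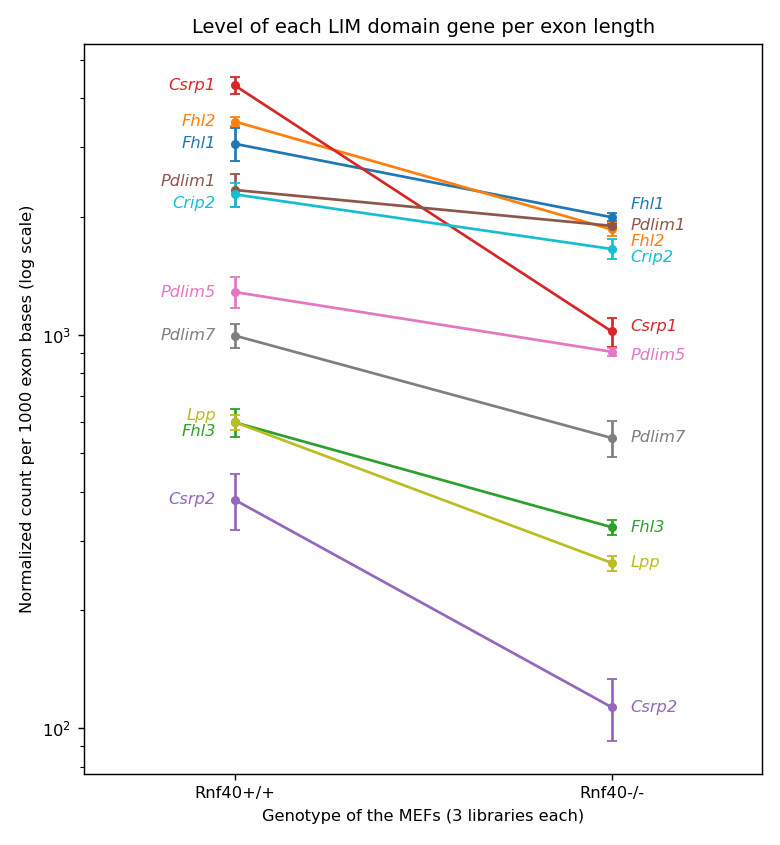
Normalized count per kilobase of exons (log axis) of each LIM domain gene in Rnf40+/+ and Rnf40-/- MEFs, as mean ± SD of 3 libraries per genotype. The line of Csrp1 crosses those of Fhl2, Fhl1, Pdlim1 and Crip2, as Csrp1 goes from 4309 to 1021.

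The ratio of a pair of family members within a library does not depend on the size factor, and 7 such pairs were compared with an exact permutation test, two-sided, which cannot give a p below 0.1 with 3 libraries per genotype. Fhl1 against Fhl2 went from between 1.92 and 2.20 in Rnf40+/+ to between 2.53 and 2.62 in Rnf40-/- libraries without overlap, a difference of 0.30 on the log2 scale (exact permutation p = 0.1, 0.14 after Benjamini-Hochberg adjustment over the 7 pairs). Fhl3 against Fhl2 overlapped between genotypes, with a log2 difference of 0.03 (exact permutation p = 0.7). Fhl1 against Fhl3 went from between 9.31 and 12.5 to between 13.0 and 14.1, again without overlap (exact permutation p = 0.1, 0.14 after adjustment), and its log2 difference of 0.27 was 0.13 without Rnf40+/+ replicate 3. For Csrp1 against Csrp2 the ratios of 19.4 to 25.6 and of 14.7 to 22.3 overlapped (log2 difference -0.33, and -0.19 without Rnf40-/- replicate 2, exact permutation p = 0.2), so the steeper fitted fall of Csrp1 was not separated from that of Csrp2 by the libraries. In the PDZ-LIM family all 3 pairs were without overlap, although each of these ratios is fixed by the remaining ones, as in the FHL family. How often pairs of other genes lie apart in this way was not computed. Pdlim1 against Pdlim7 went from between 0.608 and 0.840 to between 1.01 and 1.22, Pdlim5 against Pdlim7 from between 1.21 and 1.65 to between 1.70 and 2.04, and Pdlim1 against Pdlim5 from between 0.504 and 0.513 to between 0.563 and 0.601. Each of these 3 pairs had the smallest p that the test allows (exact permutation p = 0.1, 0.14 after adjustment). Per exon length, Pdlim1 made up 50.5% ± 1.90 of the 3 PDZ-LIM members in Rnf40+/+ and 56.6% ± 1.41 in Rnf40-/- MEFs, while the share of Pdlim7 was 21.7% ± 2.76 and 16.3% ± 1.39 (SD, n = 3 each).

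**Figure D4:**
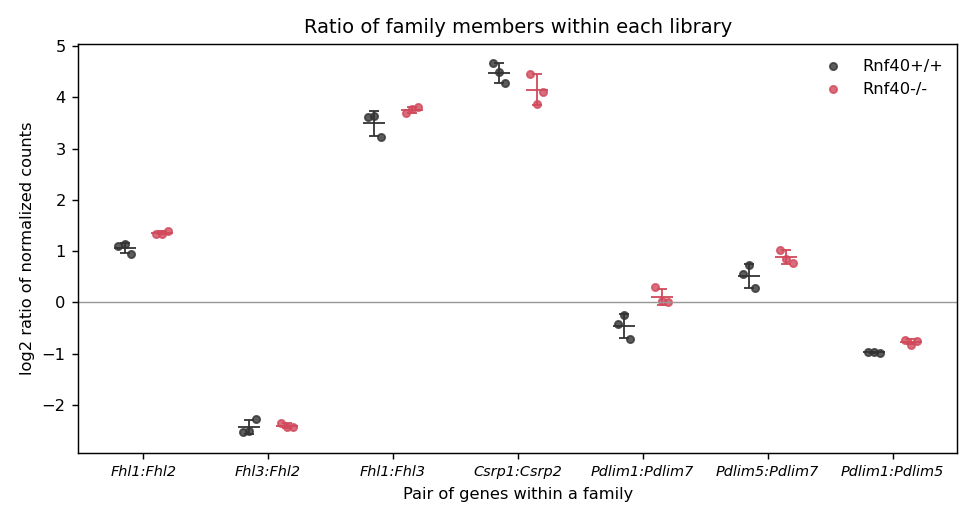
Log2 ratio of the normalized counts of 2 members of a family within each library, for 7 pairs; points are libraries and bars are the mean ± SD in Rnf40+/+ (dark) and Rnf40-/- (red) MEFs. The genotypes overlap for Fhl3:Fhl2 and Csrp1:Csrp2 and lie apart for the other 5 pairs.

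Of 41 further LIM proteins of the cytoskeleton, 38 had enough reads to be tested. In this list 18 genes were lower, 9 were higher and 11 were not called by limma, and the median log2 fold change was -0.26. By the same rule 24.1% of all genes tested were lower and 23.3% were higher. By subfamily, 3 of the 4 other PDZ-LIM genes fell. These were Ldb3, a Z-disc protein of muscle also called ZASP (-1.64 on the log2 scale, adjusted p = 3.81e-06), Pdlim4 (-1.38, adjusted p = 0.00048) and Pdlim2 (-0.30, adjusted p = 0.0148), all from limma. Pdlim3 had a log2 fold change of 1.10 (limma adjusted p = 0.179) and between 1.02 and 13.2 normalized counts per library, and the log2 fold change was 0.33 without Rnf40+/+ replicate 2, the library with 1.02, and 1.63 without Rnf40+/+ replicate 3. Leaving out Rnf40-/- replicate 2 ended the call of Pdlim2 (-0.205, limma adjusted p = 0.0708).

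In the zyxin family the relatives of Lpp moved in both directions. Zyx, the gene for zyxin, fell from 11064 to 7719 normalized counts (log2 fold change -0.52, limma adjusted p = 4.9e-05). Limd1 rose by 0.47 and Ajuba, listed as Jub, rose by 0.32 on the log2 scale (adjusted p = 0.000232 and 0.00243 from limma). Trip6 (-0.22, adjusted p = 0.147) and Wtip (0.04, adjusted p = 0.724) were not called. Without Rnf40+/+ replicate 3 the log2 fold change of Trip6 was -0.07 (limma adjusted p = 0.549), and that of Wtip ran from -0.02 to 0.10 with 1 library left out. Csrp3, the muscle LIM protein of the CRP family, had a normalized count of 509, 573 and 1054 in Rnf40+/+ and of 643, 1060.3 and 1125 in Rnf40-/- MEFs. Its genotypes overlapped, and its log2 fold change of 0.44 was not called (limma adjusted p = 0.171), and it depended on single libraries. It was called without Rnf40+/+ replicate 3 (0.76, limma adjusted p = 0.00242) and without Rnf40-/- replicate 1 (0.69, limma adjusted p = 0.0379). It was 0.24 without Rnf40+/+ replicate 1 (limma adjusted p = 0.448) and 0.29 without Rnf40-/- replicate 3 (limma adjusted p = 0.45). Fhl4 was not called (0.33, limma adjusted p = 0.38), and its log2 fold change moved with single libraries. Among Rnf40+/+ libraries, leaving out replicate 1 gave 0.12 and leaving out replicate 3 gave 0.56, and among Rnf40-/- libraries, leaving out replicate 2 gave 0.20 and leaving out replicate 3 gave 0.55. Fhl5 (0.944 to 14.3 normalized counts per library) and Crip3 (0 to 5.10) had too few reads to be tested. Crip1 fell by 0.91 in log2 (limma adjusted p = 0.0192), but Rnf40+/+ replicate 3 had 232 normalized counts against 102 and 97.9 in the other Rnf40+/+ libraries, and without it the log2 fold change was -0.51. Its call was lost without Rnf40-/- replicate 2 (limma adjusted p = 0.0676) or replicate 3 (limma adjusted p = 0.0587).

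The other families also held falls and rises. Lims2 (PINCH2), a partner of integrin-linked kinase, had the largest fall of the 38 genes, from 330 to 56.7 normalized counts (log2 fold change -2.52, limma adjusted p = 7.26e-08). Tgfb1i1, the gene of the paxillin relative Hic-5, fell by 1.64 (limma adjusted p = 7.85e-09) and Prickle3, a planar polarity protein, fell by 1.39 in log2 (limma adjusted p = 1.88e-07). The largest rises were those of Zfp185, which had few reads in Rnf40+/+ (10.6 against 69.4 normalized counts, log2 fold change 2.69, limma adjusted p = 4.64e-05), and of the nebulin relative Nebl (16.8 against 63.3, 1.89, limma adjusted p = 0.000244). Lmo7 rose by 0.70 and Micall1, a protein of endocytic recycling, rose by 0.65 on the log2 scale (adjusted p = 4.24e-05 and 1.37e-05 from limma).

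**Figure D5:**
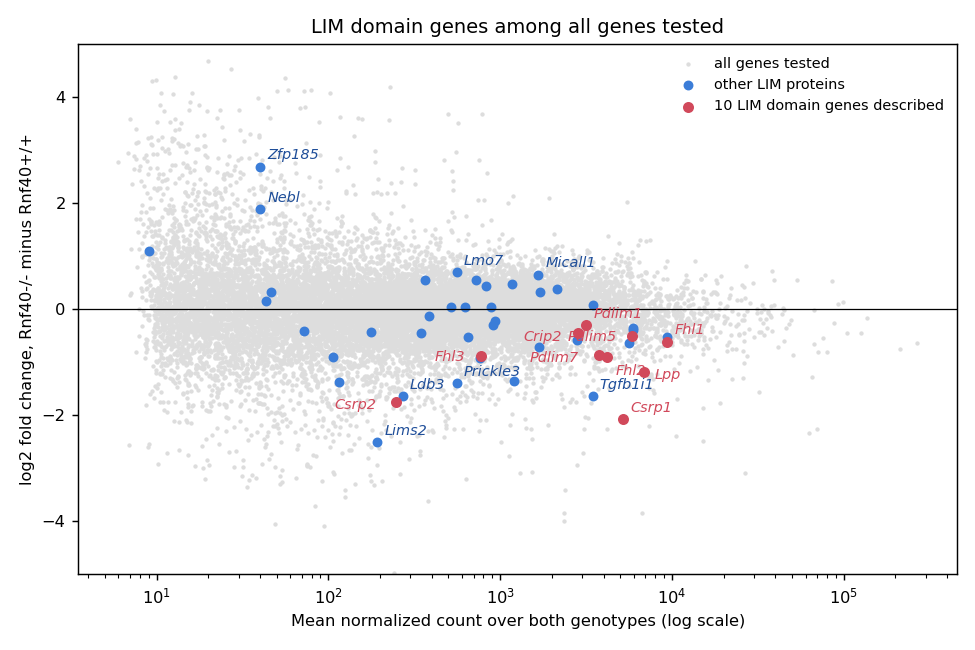
Log2 fold change (Rnf40-/- minus Rnf40+/+) against the mean normalized count (log axis) of all genes tested (gray), the 38 other LIM proteins (blue) and the 10 LIM domain genes described (red), with 2 genes outside the vertical axis. The red points all lie below 0, whereas the blue points run from -2.52 for Lims2 to 2.69 for Zfp185.

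Among the actin-linked partners that several of these proteins bind, 4 of 8 genes were lower, 1 was higher and 3 were not called by limma. Over all genes tested the shares were 24.1% lower and 23.3% higher. Vasp, a partner of zyxin and LPP that promotes actin elongation, fell from 3143 to 1559.9 normalized counts (log2 fold change -1.01, limma adjusted p = 1.46e-07). Its relative Enah rose by 0.42 in log2 (limma adjusted p = 0.000285), and Evl was not called (0.02, limma adjusted p = 0.853). Palld, the gene for the actin crosslinker palladin, fell by 0.95 in log2 (limma adjusted p = 1.61e-06). Of the alpha-actinins, Actn4 fell by 0.51 (adjusted p = 0.000332) and Actn3, with at most 53.7 normalized counts in a library, fell by 1.82 (adjusted p = 0.00806), while Actn1 (-0.04, adjusted p = 0.695) and Actn2 (0.0006, adjusted p = 0.999) were not called, all from limma. With 1 library left out, the log2 fold changes of Actn1, Actn2 and Evl ran from -0.09 to 0.0007, from -0.31 to 0.30 and from -0.03 to 0.08. Srf itself fell by 0.58 in log2 (limma adjusted p = 1.67e-05). Of its cofactors, Mkl2 rose by 0.43 (limma adjusted p = 0.000257), Mkl1 had a log2 fold change of -0.18 (limma adjusted p = 0.0576, and 0.0147 without Rnf40+/+ replicate 3), which was -0.12 without Rnf40+/+ replicate 2, and Myocd had one of 0.95 with at most 35.5 normalized counts in a library (limma adjusted p = 0.12). The value of Myocd was 0.53 without Rnf40+/+ replicate 3 and 0.61 without Rnf40-/- replicate 2.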

How the data were processed

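The deposited table gives 1 value per gene for each of 3 Rnf40+/+ and 3 Rnf40-/- MEF libraries. Its values are a signal that the authors obtained by mapping reads to the mm9 transcriptome and dividing the reads of each gene by the DESeq size factor of the library. The submitters' processing notes name Bowtie2 (version 2.1.0) and DESeq (version 1.14.0), whereas the counting tool and its use of strand are not given in the sources used here. Divided by what 1 read was worth, 100% of positive values in every library came out whole (within 0.01 of a read), which recovered the reads. Libraries held 17053436 to 26344170 reads on genes.

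Differences were tested with limma (version 3.58.1, trended eBayes) on log2(normalized count + 1), which understates the change of genes with few reads, with a single term for genotype. Benjamini-Hochberg adjustment ran over the 16378 genes kept by filterByExpr of edgeR (version 4.0.16). Alternatives were other size factors (TMM, DESeq2, upper quartile), the quasi-likelihood test of edgeR and the Wald test of DESeq2 (version 1.42.0) on the recovered reads, 3 other filters, pseudocounts of 0.1 and 10, a replicate block and leaving out each library. On these reads edgeR called 3940 genes lower and 3857 higher. The tests were tried on simulated data.

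The genes described, the gene lists and the alternatives were chosen with earlier results of these data known. Named genes are the 10 members and Rnf40, the other members of their subfamilies, the 4 largest rises and 4 largest falls called among other LIM proteins, and listed actin partners and SRF cofactors. Positions and exon lengths are from the GENCODE annotation of mm9. No transcript of another protein-coding gene shared 75 or more nucleotides at 95% identity with a member (BLAST version 2.17.0). R (version 4.3.3) and Python (version 3.11.15) were used.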

Additional observations from a re-analysis of the deposited data

How the results depend on the processing

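Each of the 10 LIM domain genes was called lower in each of the 17 alternative settings (170 values). Pdlim1 came nearest to the threshold, with log2 fold changes of -0.37 to -0.23 and a highest adjusted p over these settings of 0.0279. By the thresholds of the study applied to limma values, with its minimum fold change, 3 of the 10 were lower, since that rule asks for a larger fall. The other LIM proteins gave 15 to 19 lower and 8 to 10 higher genes, against 18 and 9, and 32 of the 38 kept their call in every setting that tested them. Over all genes the counts ran from 3342 to 4196 lower and from 3051 to 4299 higher, and upper-quartile factors moved the median of all genes by 0.05. Libraries with the same replicate number did not deviate together (correlations of 0.01, 0.02 and 0.02 over the 16378 genes, and not every library correlated best with its own number). No pairing by number was thus seen, but with 3 libraries per genotype this check cannot exclude one. The replicate block gave 10 lower members, 19 lower and 10 higher other LIM proteins, and 4196 lower and 4021 higher genes, and with it Csrp3 (adjusted p = 0.00371), Trip6 (0.0317) and Mkl1 (0.0485) passed the threshold in limma. For the ratio Fhl3:Fhl2, leaving out 1 library gave log2 differences of -0.0135 to 0.1088. The sign turned without Rnf40+/+ replicate 1 (-0.0135) or replicate 2 (-0.0055), the cause was not tested, and the other 6 ratios kept theirs. Lmcd1, counted as lower among the other LIM proteins, lost its call in 8 settings, and Micall2 without Rnf40+/+ replicate 2. Mkl1 was past the threshold in 4 settings. Counts of markers, recomputed after seeing the data, ran from 9 to 11 lower and 0 to 1 higher for fibroblasts, 1 to 2 lower and 0 to 1 higher for muscle, 2 to 3 lower and 2 higher for macrophages, 1 to 4 higher for endothelium (1 with at least 10 reads in every library) and 0 to 2 higher for epithelium. Csrp2 rests on 88 to 546 reads per library.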

Other observations

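The order of the Rnf40+/+ libraries differed between the LIM domain genes. Relative to the Rnf40+/+ mean on the log2 scale, replicate 3 was the lowest library for Fhl1 (-0.15), Fhl2 (-0.03), Pdlim1 (-0.15) and Pdlim5 (-0.13) and the highest for Fhl3 (0.13), Csrp2 (0.21) and Pdlim7 (0.11). Among Rnf40-/- libraries, replicate 1 was the lowest for Csrp2 (-2.06), Pdlim7 (-1.05), Fhl1 (-0.6365) and Pdlim5 (-0.535). The median over the 10 genes was -0.88, -0.83 and -0.85 in the 3 Rnf40-/- libraries. Rnf40+/+ replicate 1, which stood apart in Actc1, was the lowest Rnf40+/+ library for Csrp1 (-0.08), Csrp2 (-0.27), Fhl3 (-0.10), Lpp (-0.07) and Crip2 (-0.07), and the log2 fold changes without it were -2.12 for Csrp1, -1.88 for Csrp2, -0.93 for Fhl3, -1.22 for Lpp and -0.49 for Crip2.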
